A study of Mus musculus with 2 samples.

Results

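The genes Bmp2, Acvrl1, Eng, Lrg1, Smad6, Smad7, Id1, Id2, Id3 and Tgfbi, which belong to BMP and TGF-beta signalling or are its targets, were followed in endothelial cells of adult mouse sciatic nerve. They were taken by name from the 53380 features of the count matrices, so 10 of 10 were found, and each is a protein-coding gene in GENCODE. The study sequenced single cells in 2 libraries, 1 of Injured nerve (lesion bridge, 7 days after the injury) and 1 of Intact nerve (uninjured sciatic nerve). Both libraries came from pooled adult mice that carried Cdh5(PAC)-CreERT2 and the R26-TomatoLSL reporter. Cdh5 is an endothelial gene, so the Cre recombines mainly in endothelium and leaves those cells labelled with tdTomato. Cells were sorted as tdTomato-positive and negative for CD45, a leukocyte marker. With 1 library per condition there was no replicate, no test was made, and injury cannot be told apart from the animals, the sort and the library. The 95% intervals given below are exact and cover counting error only.

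BMP and TGF-beta ligands bring pairs of type I and type II receptor kinases together, and the type I receptor then phosphorylates Smad proteins that enter the nucleus. In endothelium the type I receptor Acvrl1 (ALK1) and the co-receptor Eng (endoglin) pass circulating BMP signals to Smad1 and Smad5, whose best known targets are the Id genes. TGF-beta itself signals mainly through Tgfbr2 and Tgfbr1 to Smad2 and Smad3, and Tgfbi is named for its induction by TGF-beta. Smad6 and Smad7 are inhibitory Smads, themselves induced by the pathway, that restrain it.

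After cells were left out whose barcode had at least 5 times their unique molecules (UMIs) in the other library, 1274 Injured and 718 Intact endothelial cells of 9 author-given classes remained. The Injured cells held 19989024 UMIs with a median of 11684 per cell, and the Intact cells 4542225 with a median of 4461. The barcodes left out numbered 48 in the Injured and 100 in the Intact library, and all were the far shallower partner of the pair. The depth step between the libraries bears on any share of cells with a UMI, so shares are also given after thinning each cell to 3000 UMIs (1223 Injured and 482 Intact cells). Endothelial identity was plain in both libraries, with 9 of 9 pan-endothelial markers detected and summing to 5721 CPM in Injured and 7550 CPM in Intact cells (each gene's UMIs scaled by all UMIs of the cells summed, per 1000000). The class make-up differed widely: EC_IMMAT, EC_TIP and EC_PROLIF together gave 51.4% of Injured endothelial UMIs (522 cells) and 1.48% of Intact ones (19 cells). Pooled values therefore mix different classes. Comparisons inside a class were possible for the 5 classes with at least 20 cells in both libraries: EC_ART (144 Injured and 91 Intact cells), EC_BAR (36 Injured and 181 Intact), EC_CAP-PV- (76 Injured and 128 Intact), EC_VEN-PV+ (362 Injured and 213 Intact) and EC_VEN-PV- (121 Injured and 44 Intact). The top genes of these classes held no more markers of another vessel type than of their own. The name EC_VEN-PV- had the least support, with 0 venous markers among its 10 leading Injured genes and haemoglobin genes leading its Intact ones. The classes were made by the authors from the same cells, so differences between classes are descriptions.

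The main pattern in pooled endothelium was that the 3 Id genes and the receptor Acvrl1 were lower in Injured endothelium while the ligand Bmp2 and the matrix gene Tgfbi were higher. A gene counted as called when its CPM, with 5 CPM added to both sides, differed at least 2-fold, and as measured when its mean was at least 10 CPM. Of the 10 genes, all measured, 2 were called higher and 4 lower, and 4 lay in between. Of all 8268 measured genes 4.79% were called higher and 6.82% lower. The median log2 ratio of Injured over Intact was -0.73 over the 10 genes and 0.04 over all measured genes, whose 10th and 90th percentiles were -0.77 and 0.72. The 10 genes were chosen with earlier results of these data known. The values over all genes therefore give scale only, and an excess over them is no evidence about the pathway. Over all genes the calls were 396 higher and 564 lower, and TMM scaling turned that split to 547 higher and 491 lower, with a median log2 ratio of 0.15.

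**Figure D1:**
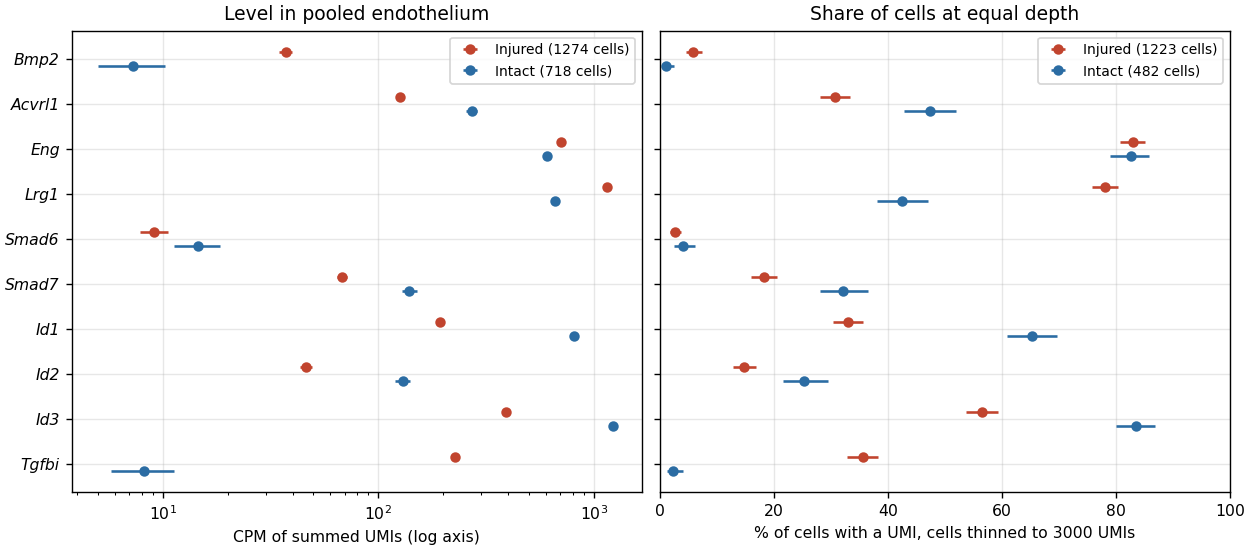
Level of each gene in pooled endothelium (left, CPM on a log axis) and the share of cells with at least 1 UMI after thinning to 3000 UMIs (right, percent), for Injured (red, upper point) and Intact (blue, lower point); bars are exact 95% intervals for counting error. Id1, Id2, Id3, Acvrl1 and Smad7 sit lower in Injured endothelium in both panels, Bmp2 and Tgfbi sit higher in both, and Eng lies at 701 CPM in Injured and 605 CPM in Intact cells with shares of 83.0% in Injured and 82.6% in Intact cells.

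Id1, Id2 and Id3 encode helix-loop-helix proteins without a DNA-binding region, which hold basic helix-loop-helix factors inactive and are among the most direct readouts of BMP signalling. Id1 (GRCm38 chr2:152736251-152737410, plus strand) stood at 194 CPM in Injured endothelium (interval 188 to 200) and 807 CPM in Intact endothelium (781 to 834). That is 4.17-fold lower (3.98 to 4.36), a log2 ratio of -2.03. Id3 (chr4:136143497-136145755, plus strand) stood at 391 CPM in Injured and 1230 CPM in Intact cells, 3.15-fold lower (3.04 to 3.26; log2 ratio -1.64). Id2 (chr12:25093799-25097140, minus strand), which was sparser, stood at 46.2 CPM in Injured and 130 CPM in Intact cells, 2.81-fold lower (2.53 to 3.12; log2 ratio -1.40). All 3 genes were thus lower in the Injured library, well beyond counting error. Barcodes without a class, many of them fibroblast-like, also held less: Id1 stood at 77.3 CPM in Injured and 181 CPM in Intact barcodes (ratio 0.427, 0.382 to 0.476), Id2 at 27.0 Injured and 73.3 Intact CPM (ratio 0.368, 0.306 to 0.441) and Id3 at 441 Injured and 611 Intact CPM (ratio 0.721, 0.685 to 0.759). Those barcodes mix cell types, and the part of each in these ratios was not tested. In the fibroblast-like ones Id1 stood at 49.4 Injured and 91.4 Intact CPM and Id2 at 20.3 Injured and 37.8 Intact CPM. Id3 stood there at 379 Injured and 525 Intact CPM. Lower Id levels were therefore not confined to cells of the endothelial classes.

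At equal depth the Id genes were also found in a smaller share of Injured cells. After thinning, Id1 was seen in 33.0% of Injured and 65.4% of Intact cells, Id3 in 56.6% of Injured and 83.6% of Intact cells, and Id2 in 14.7% of Injured and 25.3% of Intact cells. Without thinning the Id1 shares were 63.2% in Injured and 71.2% in Intact cells, with Injured cells the deeper ones. Fibroblast-like cells without a class, which also express Id genes, gave thinned Id1 shares of 6.81% (Injured, 251 cells, median 11672 UMIs) and 18.4% (Intact, 351 cells, median 6586 UMIs). The endothelial Id1 shares lay above those levels in both libraries. For Id2 the fibroblast-like shares were 4.26% in Injured and 7.28% in Intact cells. For Id3, which fibroblast-like cells expressed at 379 CPM in the Injured and 525 CPM in the Intact library, they were 54.5% in Injured and 60.8% in Intact cells, so the Injured endothelial Id3 share lay close to that of fibroblast-like cells.

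The Id genes were lower inside the compared classes too. In EC_ART, EC_BAR, EC_CAP-PV-, EC_VEN-PV+ and EC_VEN-PV- the share of measured genes called higher was 6.07%, 6.29%, 5.76%, 3.77% and 7.91%, and the share called lower was 7.31%, 6.87%, 9.21%, 4.61% and 6.34%. Id1 was called lower in 5 of 5 classes. EC_ART had 407 CPM in Injured and 1346 CPM in Intact cells, and EC_BAR had 482 CPM in Injured and 1001 CPM in Intact cells. EC_CAP-PV- had 347 CPM in Injured and 1126 CPM in Intact cells, EC_VEN-PV+ 86.9 Injured and 283 Intact CPM, and EC_VEN-PV- 175 Injured and 549 Intact CPM. The log2 ratios ran between -1.71 in EC_ART and -1.05 in EC_BAR, and the class that was lowest for Id1 in Intact nerve, EC_VEN-PV+, was also lowest in Injured nerve.

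Id3 was called lower in 4 of 5 classes and Id2 in 3 of 5, and every one of their class ratios was below 0 on the log2 scale. For Id3 the largest difference was in EC_ART, with 501 CPM in Injured and 1568 CPM in Intact cells (3.13-fold lower, 2.86 to 3.42), and the one class not called was EC_BAR, with 800 Injured and 1539 Intact CPM (log2 ratio -0.94). For Id2 the largest difference was again in EC_ART, with 50.2 CPM in Injured and 186 CPM in Intact cells (3.70-fold lower, 2.81 to 4.89). The classes not called for Id2 were EC_VEN-PV+ (55.1 Injured and 111 Intact CPM, log2 ratio -0.95) and EC_VEN-PV- (65.5 Injured and 134 Intact CPM, log2 ratio -0.98), both just short of the threshold.

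Across the 8 Injured classes of at least 20 cells, Id1 was highest in EC_BAR at 482 CPM. EC_ART (407) and EC_CAP-PV- (347) followed with overlapping neighbouring intervals, then, with no overlap, EC_IMMAT (204), EC_VEN-PV- (175) and EC_PROLIF (173), then EC_TIP (123) and EC_VEN-PV+ (86.9). Every Injured class was lower than 5 of the 6 Intact ones. The Intact order was EC_CAP-PV+ (1462 CPM, 42 cells), EC_ART (1346), EC_CAP-PV- (1126), EC_BAR (1001), EC_VEN-PV- (549) and EC_VEN-PV+ (283), where EC_CAP-PV+ and EC_ART overlapped, as did EC_CAP-PV- and EC_BAR. Arterial, capillary and barrier cells were thus the high classes, and EC_VEN-PV+ the low one, in both libraries. EC_TIP was the lowest Injured class for Id3 (193 CPM) and for Id2 (15.7 CPM), where the highest classes were EC_BAR at 800 CPM and EC_VEN-PV- at 65.5 CPM.

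**Figure D2:**
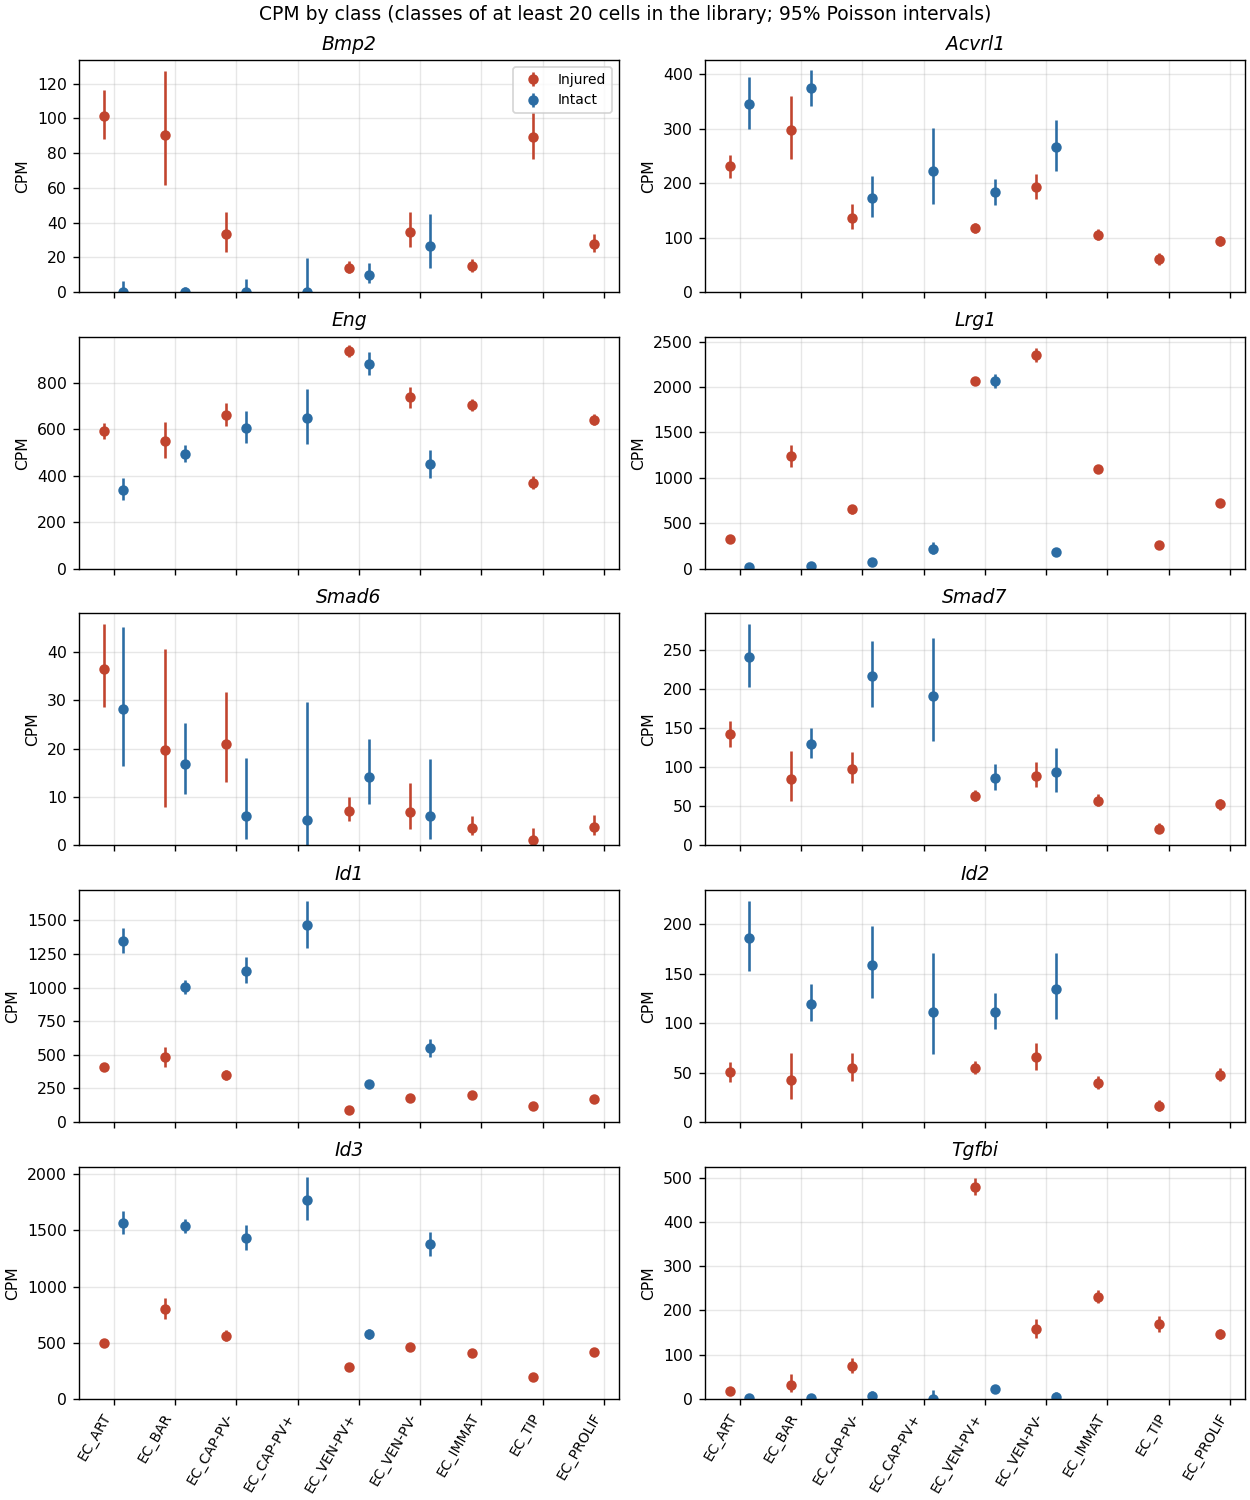
CPM of each gene by class, in classes of at least 20 cells, for Injured (red, left of each tick) and Intact (blue, right of each tick); bars are exact 95% Poisson intervals, and the vertical scale differs between panels and starts at 0. The 3 Id genes lie lower in Injured cells in every class with both points, Tgfbi lies higher, and Lrg1 lies higher in 4 classes but at 2063 CPM in Injured and 2066 CPM in Intact cells in EC_VEN-PV+.

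Tgfbi, a secreted extracellular matrix protein that binds integrins and collagen, showed the largest difference of the 10 genes. It lies at chr13:56609523-56639562 on the plus strand. Its level was 226 CPM in Injured endothelium (4520 UMIs, interval 220 to 233) and 8.15 CPM in Intact endothelium (37 UMIs, 5.74 to 11.2), a ratio of 27.8 (20.1 to 39.5) and a log2 ratio of 4.14. After thinning, 35.6% of Injured and 2.28% of Intact cells held a Tgfbi UMI, and the Intact UMIs were spread over 30 cells with at most 3 in one.

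Tgfbi was higher in Injured cells in 5 of 5 compared classes, with log2 ratios between 1.80 and 4.19. The largest counts were in EC_VEN-PV+, with 479 CPM in Injured and 21.6 CPM in Intact cells (22.2-fold higher, 15.4 to 33.3). EC_VEN-PV- had 157 CPM in Injured and 4.06 CPM in Intact cells, EC_CAP-PV- 73.2 Injured and 6.17 Intact CPM, EC_BAR 31.0 Injured and 0.735 Intact CPM, and EC_ART 18.2 Injured and 1.66 Intact CPM. The Intact values in these last 4 classes rest on 1 to 3 UMIs, so their ratios are wide, for example 38.7 (10.6 to 322) in EC_VEN-PV-, and in EC_ART the mean was just under the 10 CPM minimum. Within Injured nerve the order was EC_VEN-PV+ (479 CPM), EC_IMMAT (230), EC_TIP (168), EC_VEN-PV- (157), EC_PROLIF (145), EC_CAP-PV- (73.2), EC_BAR (31.0) and EC_ART (18.2). The intervals of EC_TIP and EC_VEN-PV-, of EC_VEN-PV- and EC_PROLIF, and of EC_BAR and EC_ART overlapped. This order was close to the reverse of that for Id1: over the 14 points made by 8 Injured and 6 Intact classes, log2 CPM (5 added) of Id1 and Tgfbi had a Pearson r of -0.95, and -0.92 over the 8 Injured points. The points share 2 libraries, so no p is given.

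Tgfbi is also a gene of fibroblasts, and fibroblast-like cells without a class held 441 CPM (Injured) and 398 CPM (Intact) of it. A set of 7 fibroblast markers, 7 of them detected in each library, summed to 36.1 CPM in Injured and 60.8 CPM in Intact endothelium, with class ranges of 30.6 to 43.8 CPM in Injured and 36.5 to 85.0 CPM in Intact nerve. Myeloid cells can express Tgfbi as well, and a set of 9 myeloid markers summed to 8.10 CPM in Injured and 48.2 CPM in Intact cells, with Ptprc, C1qa and Adgre1 at 0 in both libraries. Of the 219 Intact myeloid UMIs, 151 were in 1 cell of a class with under 20 cells, and over the larger classes the sums ranged between 5.58 and 14.1 CPM in Injured and between 10.3 and 26.6 CPM in Intact nerve. Without thinning, a fibroblast marker UMI was found in 37.4% of Injured and 25.9% of Intact cells, and a myeloid one in 11.6% of Injured and 8.22% of Intact cells, with Injured cells the deeper ones. In the cells without a UMI of either set (719 Injured and 493 Intact) Tgfbi stood at 242 Injured and 6.08 Intact CPM. Over all barcodes of the matrices, cells without a class included, the log2 ratio of Tgfbi was 0.57. The part of fibroblast or myeloid RNA in the Tgfbi values was not tested.

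Bmp2, a secreted BMP ligand, lies at chr2:133552159-133562885 on the plus strand and was the only ligand among the 10 genes. It stood at 37.1 CPM in Injured endothelium (742 UMIs in 227 of 1274 cells) and 7.27 CPM in Intact endothelium (33 UMIs in 10 of 718 cells). The ratio was 5.11 (3.61 to 7.48) and the log2 ratio 1.78. After thinning, 5.81% of Injured and 1.04% of Intact cells held a Bmp2 UMI. The UMIs were concentrated in few cells: the 10 highest held 29.9% of them in the Injured library and 100% in the Intact one, where 1 cell held 12.

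Among the 5 compared classes, Bmp2 was called higher in EC_ART, EC_BAR and EC_CAP-PV-. Injured cells had 101 CPM in EC_ART (206 UMIs), 90.2 CPM in EC_BAR (32 UMIs, in 4 of 36 cells) and 33.3 CPM in EC_CAP-PV- (35 UMIs), while Intact cells of these 3 classes (91, 181 and 128 cells) had 0 UMIs. Set against 3 counts over the Intact class, Bmp2 was at least 20.4-fold higher in EC_ART, at least 40.9-fold in EC_BAR and at least 5.39-fold in EC_CAP-PV-, with the Injured counts taken as they stand. The exact 95% intervals, which also take in the counting error of the Injured cells, reach lower and begin at 16.4-fold in EC_ART, 31.4-fold in EC_BAR and 4.16-fold in EC_CAP-PV-. In the venous classes Bmp2 was not called. EC_VEN-PV+ had 13.9 CPM in Injured and 9.67 CPM in Intact cells (ratio 1.44, 0.785 to 2.84). EC_VEN-PV- had 34.8 Injured and 26.4 Intact CPM (ratio 1.32, 0.706 to 2.65). The 13 Intact UMIs of EC_VEN-PV- were in 2 of 44 cells, so its ratio rests on few cells. Thinned shares of cells with a Bmp2 UMI were 10.3% in Injured and 2.27% in Intact EC_VEN-PV- cells. In EC_VEN-PV+ they were 1.98% in Injured and 1.81% in Intact cells. Among the 3 classes that were rare in Intact nerve, EC_TIP was high in Bmp2 at 89.3 CPM, and EC_PROLIF (27.6) and EC_IMMAT (14.9) were lower. Of the Injured Bmp2 UMIs, EC_TIP held 23.7%, EC_PROLIF 15.6% and EC_IMMAT 8.22%. EC_ART held 27.8%, EC_BAR 4.31% and EC_CAP-PV- 4.72%. The pooled ratio thus also draws on classes that could not be compared. EC_ART, EC_BAR and EC_TIP had overlapping neighbouring intervals and lay above the other 5 Injured classes.

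These shares were set beside those of another cell type. In fibroblast-like cells without a class a Bmp2 UMI was found, after thinning, in 3.40% of Injured and 1.58% of Intact cells. Injured EC_ART (13.0%), EC_TIP (14.7%), EC_VEN-PV- (10.3%), EC_BAR (9.09%) and EC_CAP-PV- (5.63%) were above the Injured level. No intervals were made for these shares, and those of EC_BAR (33 thinned cells) and EC_CAP-PV- (71 thinned cells) rest on few cells. Injured EC_IMMAT (3.54%), EC_PROLIF (3.18%) and EC_VEN-PV+ (1.98%) were near or below the Injured fibroblast-like share. The Intact endothelial share of 1.04% was below the Intact fibroblast-like one, but Intact EC_VEN-PV+ (1.81%) and EC_VEN-PV- (2.27%) were just above it. Fibroblast-like cells held 20.6 Injured and 6.57 Intact CPM of Bmp2 and may express it. Lymphatic-like cells without a class (20 Injured and 103 Intact) held 0 Bmp2 UMIs. Low expression and background were therefore not told apart by these shares.

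Acvrl1 and Eng form the endothelial receptor complex for BMP9 and BMP10, and loss of either gene causes hereditary haemorrhagic telangiectasia in humans. Acvrl1 (chr15:101128522-101145336, plus strand) stood at 126 CPM in Injured and 271 CPM in Intact endothelium, 2.16-fold lower (2.02 to 2.32; log2 ratio -1.08). Its thinned shares were 30.7% in Injured and 47.3% in Intact cells. Eng (chr2:32646595-32682669, plus strand) stood at 701 CPM in Injured and 605 CPM in Intact cells, a ratio of 1.16 (1.11 to 1.21), with thinned shares of 83.0% in Injured and 82.6% in Intact cells. In fibroblast-like cells the thinned shares were 4.26% (Injured) and 6.96% (Intact) for Acvrl1, and 4.68% (Injured) and 1.27% (Intact) for Eng. The receptor was thus lower in Injured endothelium while its co-receptor was close in both libraries.

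Inside classes the Acvrl1 difference was smaller than in the pool, and 0 of 5 classes passed 2-fold. EC_ART had 231 CPM in Injured and 345 CPM in Intact cells, and EC_BAR 299 Injured and 375 Intact CPM. EC_CAP-PV- had 137 CPM in Injured and 173 CPM in Intact cells, EC_VEN-PV+ 117 Injured and 183 Intact CPM, and EC_VEN-PV- 193 Injured and 266 Intact CPM. EC_BAR and EC_ART were the 2 highest classes in both libraries, with overlapping intervals. The ratios lay between 0.641 in EC_VEN-PV+ and 0.797 in EC_BAR, and the interval of EC_CAP-PV- (0.601 to 1.05) included 1. The classes that made up most of the Injured UMIs were those lowest in Acvrl1, with 105 CPM in EC_IMMAT, 93.8 in EC_PROLIF and 60.4 in EC_TIP. With the 5 classes weighted equally the log2 ratio was -0.45, and the pooled call was lost.

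Eng was above 0 on the log2 scale in 5 of 5 classes but called in none. Its widest difference was in EC_ART, with 591 CPM in Injured and 339 CPM in Intact cells (ratio 1.75, 1.50 to 2.04), followed by EC_VEN-PV- with 738 Injured and 449 Intact CPM (1.64, 1.42 to 1.91). In EC_BAR (550 Injured and 496 Intact CPM), EC_CAP-PV- (663 Injured and 607 Intact CPM) and EC_VEN-PV+ (937 Injured and 882 Intact CPM) the intervals of the ratio included 1. EC_VEN-PV+ was the highest class for Eng in both libraries. EC_TIP was the lowest Injured class at 370 CPM, and EC_ART the lowest Intact one.

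Lrg1 encodes a secreted leucine-rich glycoprotein that in mouse binds Eng and shifts endothelial TGF-beta signalling. It lies at chr17:56119678-56122001 on the minus strand. In pooled endothelium it stood at 1154 CPM in Injured and 662 CPM in Intact cells, a ratio of 1.74 (1.68 to 1.81; log2 ratio 0.80) that was not called. The thinned shares were 78.2% in Injured and 42.5% in Intact cells. Fibroblast-like cells without a class had thinned shares of 3.40% (Injured) and 0.949% (Intact), far below the endothelial ones.

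The pooled ratio of Lrg1 averaged over classes that differed widely. In EC_VEN-PV+ it stood at 2063 CPM in Injured and 2066 CPM in Intact cells, a ratio of 0.998 (0.957 to 1.04). In the other 4 classes Injured cells were far higher: 326 Injured and 14.9 Intact CPM in EC_ART (21.8-fold, 11.4 to 48.0), 1237 Injured and 29.4 Intact CPM in EC_BAR (42.1-fold, 30.4 to 59.7), 653 Injured and 78.2 Intact CPM in EC_CAP-PV- (8.35-fold, 6.02 to 11.9) and 2350 Injured and 187 Intact CPM in EC_VEN-PV- (12.6-fold, 10.2 to 15.6). EC_VEN-PV+ held 42.5% of all Lrg1 UMIs in Injured and 92.4% in Intact endothelium, and 23.8% of all UMIs in Injured and 29.6% in Intact endothelium. Lrg1 was detected in each of the 8 Injured and 6 Intact classes of at least 20 cells.

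The Injured order for Lrg1 was EC_VEN-PV- (2350 CPM), EC_VEN-PV+ (2063), EC_BAR (1237), EC_IMMAT (1092), EC_PROLIF (723), EC_CAP-PV- (653), EC_ART (326) and EC_TIP (265). The Intact order was EC_VEN-PV+ (2066 CPM), EC_CAP-PV+ (218), EC_VEN-PV- (187), EC_CAP-PV- (78.2), EC_BAR (29.4) and EC_ART (14.9). Neighbouring intervals overlapped only for Injured EC_BAR and EC_IMMAT, Injured EC_PROLIF and EC_CAP-PV-, Intact EC_CAP-PV+ and EC_VEN-PV-, and Intact EC_BAR and EC_ART. The highest class exceeded the lowest 8.87-fold (8.09 to 9.75) in Injured and 138-fold (72.8 to 303) in Intact nerve. Lrg1 was among the 10 leading genes of Intact EC_VEN-PV+, so its level there may have helped to set that class apart. How the authors assigned the classes is not given. After thinning, Lrg1 was seen in 87.9% of Injured and 6.61% of Intact EC_BAR cells, and in 48.9% of Injured and 6.67% of Intact EC_ART cells. In EC_VEN-PV- the shares were 100% in Injured and 36.4% in Intact cells, and in Intact EC_CAP-PV+ the share was 39.1%.

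**Figure D3:**
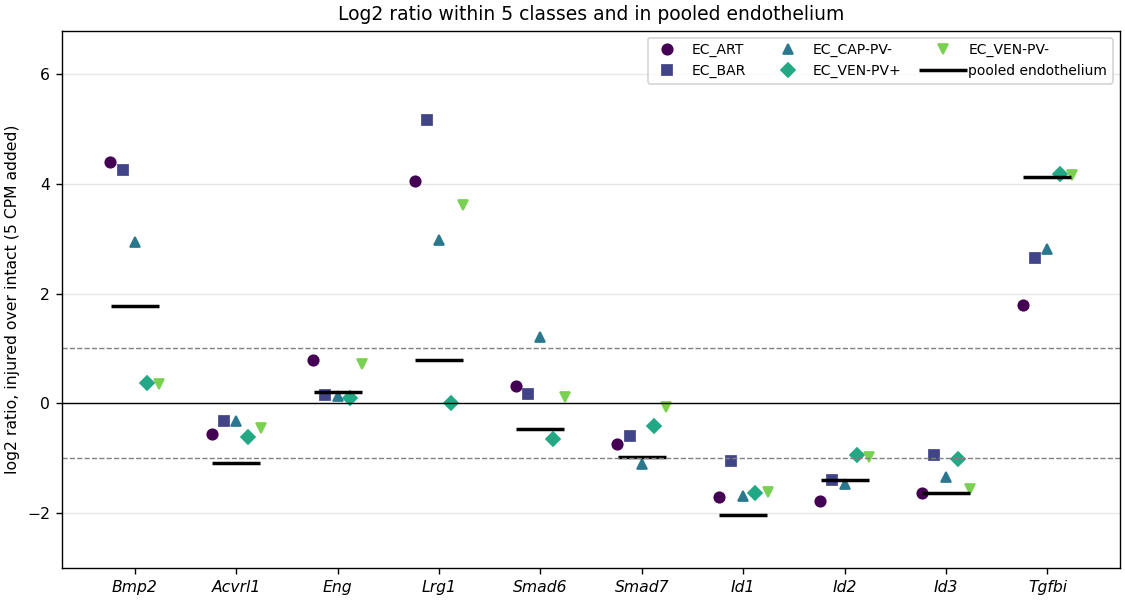
Log2 ratio of CPM, Injured over Intact with 5 CPM added, for each gene in the 5 compared classes (symbols) and in pooled endothelium (black bar); dashed lines mark 2-fold in each direction. The Id genes sit below 0 in all 5 classes and Tgfbi above 0 in all 5, while Lrg1 lies at 0 in EC_VEN-PV+ and at 5.17 in EC_BAR; the 3 highest Bmp2 points have 0 Intact UMIs, so their height depends on the 5 CPM added.

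Smad6 and Smad7 encode the inhibitory Smads, the first of which acts mainly on BMP receptors and the second on both branches. Smad7, on chromosome 18, stood at 68.0 CPM in Injured and 139 CPM in Intact endothelium, 2.05-fold lower (1.86 to 2.25). With 5 CPM added its log2 ratio was -0.98, just short of a call. Its thinned shares were 18.2% in Injured and 32.2% in Intact cells, and those of fibroblast-like cells, where Smad7 stood at 62.6 Injured and 80.2 Intact CPM, were 17.4% (Injured) and 19.0% (Intact). It was below 0 on the log2 scale in 5 of 5 classes and called in 1, EC_CAP-PV-, with 97.9 CPM in Injured and 216 CPM in Intact cells (2.21-fold lower, 1.67 to 2.93). In EC_ART, its highest class in both libraries, it stood at 142 CPM in Injured and 241 CPM in Intact cells, and in EC_VEN-PV- at 89.1 Injured and 93.5 Intact CPM. Injured EC_TIP cells held the least, 21.3 CPM.

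Smad6 (chr9:63953076-64022059, minus strand) was the sparsest of the 10 genes, with 182 Injured and 66 Intact UMIs. It stood at 9.11 CPM in Injured and 14.5 CPM in Intact endothelium, 1.60-fold lower (1.19 to 2.13; log2 ratio -0.47). It was highest in EC_ART in both libraries, at 36.4 CPM in Injured and 28.2 CPM in Intact cells (ratio 1.29, 0.754 to 2.33). In EC_VEN-PV+ it stood at 7.15 CPM in Injured and 14.1 CPM in Intact cells, and in EC_CAP-PV- at 20.9 Injured and 6.17 Intact CPM, where the Intact value rests on 3 UMIs. With classes weighted equally the log2 ratio was 0.27, so the pooled value changed direction. Its thinned shares, 2.62% in Injured and 3.94% in Intact endothelium, were near the 1.70% (Injured) and 4.43% (Intact) of fibroblast-like cells. Those cells held 3.09 Injured and 9.53 Intact CPM of Smad6 and may express it, so low expression and background were not told apart. The shares in EC_ART, 11.5% in Injured and 8.33% in Intact cells, were above the fibroblast-like ones. Those in EC_CAP-PV- were 4.23% in Injured and 1.69% in Intact cells, the Intact one below the fibroblast-like share, so the ratio there is not read as a difference. The lowest Injured class was EC_TIP with 2 UMIs in 100 cells. EC_TIP was also lowest of the 8 Injured classes for Acvrl1, Eng, Lrg1, Smad7, Id2 and Id3.

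Over the 50 pairs of gene and compared class, 13 were called higher in Injured cells and 13 lower. The higher calls were Tgfbi in 5 classes, Lrg1 in 4, Bmp2 in 3 and Smad6 in 1 (EC_CAP-PV-, with its Intact share below the fibroblast-like one). The lower ones were Id1 in 5, Id3 in 4, Id2 in 3 and Smad7 in 1. The pairs were not filtered on mean CPM, and the call of Tgfbi in EC_ART was under the minimum for a measured gene. Of all measured genes, 3.77% (EC_VEN-PV+) to 7.91% (EC_VEN-PV-) were called higher, depending on the class. The share called lower ran between 4.61% (EC_VEN-PV+) and 9.21% (EC_CAP-PV-). These shares give scale only, because the genes were chosen with earlier results of these data known.

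Short sequences bound by Smad proteins were searched in the 300-base promoter windows (250 bases before to 50 after a gene's start) that RefSeq on GRCm38.p6 gave for 6 of the 10 genes. The first was the Smad box GTCTAGAC, known as a Smad3 and Smad4 site, and the second GGCGCC, a GC-rich element known from BMP-responsive promoters. Each equals its own reverse complement, so one search covers both strands, and neither holds the other. The Smad box was in 1 of the 6 windows, Smad6, beginning 4 bases before the start, against 70 of 32851 windows (0.213%). GGCGCC was in 2 of the 6, Id2 at 231 and Tgfbi at 77 bases before the start, against 11.9% of windows. The windows of Eng, Lrg1 and Id3 held neither, and the Id3 window lies wholly in exons annotated by GENCODE, so it shows nothing of the sequence before them. The stretches around the 3 matches are shown because Smad6, Id2 and Tgfbi stand for an inhibitory Smad, a target that was lower and a target that was higher. They run 5′ to 3′ on the gene's strand, begin 250 bases before the start, and end at most 20 bases into an annotated exon. The capitals mark the match. The RefSeq starts of Id2, Id3, Lrg1 and Tgfbi lie inside the gene bounds that GENCODE gives. Smad6 is chr9:64022040-64022309 (minus), Id2 chr12:25096234-25096342 (minus) and Tgfbi chr13:56609336-56609542 (plus).
Smad6: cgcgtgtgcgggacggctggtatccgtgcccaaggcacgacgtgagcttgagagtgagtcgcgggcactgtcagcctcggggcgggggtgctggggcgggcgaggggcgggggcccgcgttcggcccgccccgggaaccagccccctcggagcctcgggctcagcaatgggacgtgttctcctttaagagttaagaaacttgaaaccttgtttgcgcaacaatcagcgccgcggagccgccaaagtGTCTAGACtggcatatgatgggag
Id2: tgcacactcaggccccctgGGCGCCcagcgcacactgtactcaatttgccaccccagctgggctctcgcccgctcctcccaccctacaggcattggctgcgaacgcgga
Tgfbi: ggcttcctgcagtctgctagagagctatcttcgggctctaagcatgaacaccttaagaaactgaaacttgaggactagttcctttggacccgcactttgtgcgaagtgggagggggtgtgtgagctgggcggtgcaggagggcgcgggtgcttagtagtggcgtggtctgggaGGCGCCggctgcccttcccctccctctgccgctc
A match is a description of the letters and says nothing of binding in these cells.

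The other genes of the pathway were read from a list of 74, of which 45 were measured. Of these, 4 were called higher and 9 lower in Injured endothelium and 32 lay in between, with a median log2 ratio of -0.27. Of all measured genes 4.79% were called higher and 6.82% lower, which gives scale only because the list was made with earlier results of these data known. Of the pathway genes all 13 calls lay among ligands, extracellular modulators and targets, with none among receptors, Smad transducers or intracellular modulators.

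Among ligands 0 of 4 measured were called higher and 2 lower. Bmp6, which liver endothelium uses to regulate iron in mouse, stood at 5.10 CPM in Injured and 24.4 CPM in Intact endothelium (4.79-fold lower, 3.63 to 6.33). Tgfb2 stood at 22.7 CPM in Injured and 66.9 CPM in Intact cells (2.95-fold lower, 2.55 to 3.42), Bmp4 at 73.2 Injured and 119 Intact CPM, and Tgfb1 at 157 Injured and 116 Intact CPM. The BMP9 and BMP10 genes, Gdf2 and Bmp10, had 0 UMIs in both libraries. Further ligands were below the 10 CPM mean: Inhbb, an activin subunit, at 15.3 CPM in Injured and 4.62 CPM in Intact cells, and Gdf11 at 9.46 Injured and 3.96 Intact CPM.

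Of the 6 measured receptors none was called, and all 6 had log2 ratios between -0.73 and -0.22. Tgfbr3 (betaglycan), a co-receptor related to Eng, stood at 94.6 CPM in Injured and 160 CPM in Intact endothelium. Bmpr2, the main type II BMP receptor, stood at 165 CPM in Injured and 225 CPM in Intact cells, Tgfbr2 at 158 Injured and 215 Intact CPM, Acvr1 at 16.9 Injured and 26.6 Intact CPM, and Tgfbr1 at 28.3 Injured and 33.9 Intact CPM. Acvr1b, below the mean, was at 8.50 CPM in Injured and 9.47 CPM in Intact cells. None of the 5 measured Smad transducers was called. Smad1, which carries BMP signals, stood at 212 CPM in Injured and 134 CPM in Intact cells (ratio 1.58, 1.45 to 1.72) and its relative Smad5 at 88.6 Injured and 68.7 Intact CPM, while Smad4, the shared partner, stood at 63.6 Injured and 77.9 Intact CPM and Smad3 at 13.4 Injured and 17.0 Intact CPM.

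The 15 measured extracellular and membrane modulators held 4 genes called higher and 4 called lower. Those higher in Injured endothelium were Thbs1 (thrombospondin-1, an activator of latent TGF-beta) at 164 CPM in Injured and 44.3 CPM in Intact cells, Fstl1 (a secreted follistatin-like protein) at 222 Injured and 80.6 Intact CPM, Cd109 (a TGF-beta co-receptor) at 81.2 Injured and 26.4 Intact CPM, and Itgav (an integrin chain that can release TGF-beta) at 16.8 Injured and 5.50 Intact CPM. The Thbs1 ratio was 3.70 (3.21 to 4.29). Those lower were Fstl3 (an activin-binding protein) at 0.700 CPM in Injured and 22.0 CPM in Intact cells, Nbl1 (a secreted BMP antagonist) at 9.61 Injured and 37.9 Intact CPM, Ltbp4 (a latent TGF-beta binding protein) at 165 Injured and 414 Intact CPM, and Mgp (a BMP-binding matrix protein) at 362 Injured and 762 Intact CPM. For Fstl3 that was 14 Injured and 100 Intact UMIs, 31.4-fold lower (17.9 to 59.6).

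Of the 6 measured intracellular modulators, the nearest to a call was Pmepa1, a TGF-beta induced inhibitor of the pathway, at 70.3 CPM in Injured and 34.1 CPM in Intact endothelium (log2 ratio 0.95). Skil stood at 77.0 CPM in Injured and 51.5 CPM in Intact cells, Ski at 95.4 Injured and 120 Intact CPM, and Smurf1 at 29.0 Injured and 29.3 Intact CPM. Among further BMP targets, 1 of 2 measured was called: Atoh8, a transcription factor gene, at 9.26 CPM in Injured and 36.1 CPM in Intact cells (3.90-fold lower, 3.14 to 4.84). Hey1 stood at 42.1 CPM in Injured and 66.9 CPM in Intact cells. The sparse Id4, the other member of the Id family, stood at 3.20 CPM in Injured and 13.6 CPM in Intact cells (4.26-fold lower, 2.96 to 6.14) and Tmem100 at 3.10 Injured and 6.38 Intact CPM.

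Of further TGF-beta targets 0 of 7 measured were called higher and 2 lower. The smooth muscle genes Acta2, at 46.1 CPM in Injured and 333 CPM in Intact endothelium (7.23-fold lower, 6.65 to 7.85), and Tagln, at 159 Injured and 657 Intact CPM, were the 2 lower ones. The 8 pericyte and smooth muscle markers, 8 of them detected in each library, summed to 14.8 CPM in Injured and 76.8 CPM in Intact endothelium, and Acta2 was among the leading genes of Intact EC_BAR. The part of those cells' RNA in Acta2 and Tagln was not tested. Fn1 (fibronectin) stood at 186 CPM in Injured and 116 CPM in Intact cells and Ctgf, a secreted matrix-associated protein, at 98.7 Injured and 101 Intact CPM. Below the 10 CPM mean, Col1a1, a chain of type I collagen, stood at 11.2 CPM in Injured and 3.52 CPM in Intact cells.

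**Figure D4:**
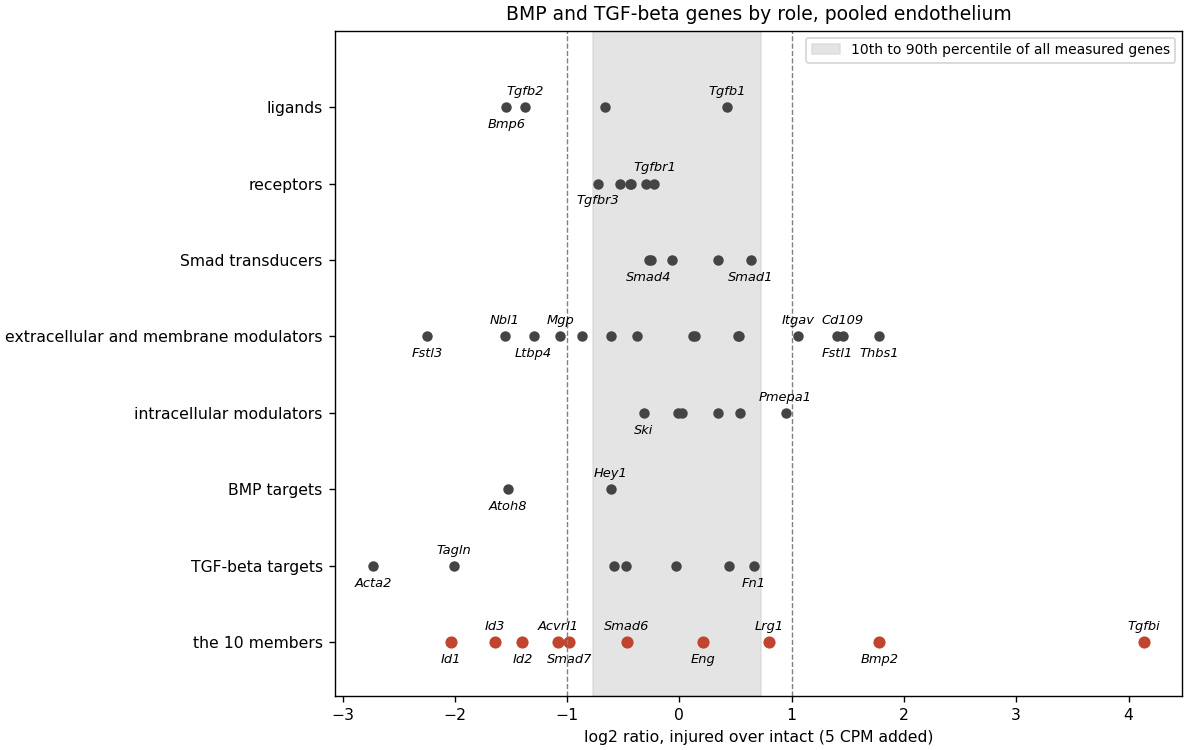
Log2 ratio of CPM, Injured over Intact with 5 CPM added, for the measured genes of the pathway by role (dark) and for the 10 genes described first (red); dashed lines mark 2-fold and the grey band runs between the 10th and 90th percentile of all measured genes (-0.77 and 0.72). The dark points of receptors, Smad transducers and most intracellular modulators lie inside the band, while modulators such as Fstl3 (-2.24) and Thbs1 (1.78) lie outside it. Of the red points, Eng and Smad6 lie inside, and Id1, Id2, Id3, Acvrl1 (-1.08), Smad7 (-0.98), Lrg1 (0.80), Bmp2 and Tgfbi lie outside.

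Likeness of pattern was read as Pearson r of log2 CPM (5 added) over the 14 class points, among the 3076 genes whose mean reached 50 CPM. The points share 2 libraries, which also differ in depth, so r describes and carries no p. Nearest to Id1 were Slc9a3r2 (0.96), Cxcl12 (0.95) and Ly6c1 (0.95), and nearest to Id3 were Ier5l (0.97), Ier2 (0.96) and Nr1d1 (0.96). Id1 and Id3 had an r of 0.95 with each other, and 0.86 over the 8 Injured points. Nearest to Id2 were H2-Q4, Srsf5 and Gm42826, each at 0.94, nearest to Tgfbi were Ipo11 (0.94), Trp53 (0.94) and Eif4g1 (0.93), and nearest to Bmp2 were Eif3e (0.87), Eef2 (0.87) and Pabpc1 (0.86). The closest genes to the signalling components were Epha4 for Acvrl1 (0.93), Tnfrsf1a for Eng (0.92), Tmem173 for Lrg1 (0.88), Zcchc14 for Smad6 (0.93) and Ccm2l for Smad7 (0.94). Next after these came Samd12 and Stom for Acvrl1 (each 0.93), Sntb2 (0.82) and Tspan4 (0.81) for Eng, Tnfrsf1a and Srek1 for Lrg1 (each 0.87), Lrrc32 (0.90) and She (0.85) for Smad6, and Epas1 and App for Smad7 (each 0.93).

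Within single cells thinned to 3000 UMIs, Id1 and Id3 were often seen together. Of Injured cells with an Id1 UMI 73.4% also held Id3, against 48.3% of the other Injured cells, and of Intact cells with an Id1 UMI 90.8% held Id3, against 70.1% of the other Intact cells. Lrg1 was in 73.2% of Injured cells with Id1 and 80.6% of those without, against 29.5% of Intact cells with Id1 and 67.1% of those without. Tgfbi was in 41.0% of Injured cells with Lrg1 and 16.1% of those without. These shares describe the cells of 1 library each, over all endothelial classes.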

How the data were processed

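The authors deposited 1 matrix per library with raw counts of unique molecules (UMIs), genes against barcodes. Per the file headers these came from Cell Ranger 3.0.2. The submitters' processing notes name Cell Ranger 6.1.2 and Seurat 4.0.1 too, and mm10 and GRCm38 as builds. A deposited cell table from the authors gave each cell's class. Their cell filters, class assignment and doublet handling, and the meaning of PV, are not given in the sources used here.

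Cells were matched to the table by library and barcode. The libraries hold 2023 (Injured) and 1618 (Intact) barcodes and share 298. A cell was left out where its barcode had at least 5 times its UMIs in the other library; the smallest such depth ratio was 24.9, and 4 Intact cells of similar depth to their partner were kept. No doublet caller was run. UMIs were summed per gene, class and library and divided by all UMIs of those cells (CPM). Intervals are exact 95% ones: Poisson for CPM, conditional binomial for ratios, Clopper-Pearson for shares. A group with 0 UMIs was set to 3 counts over the class. Log2 ratios had 5 CPM added. Thinning drew 3000 UMIs per cell without replacement (seed 1). Fibroblast-like cells had no class, at least 1000 UMIs, at least 4 fibroblast markers and more UMIs of fibroblast than of pan-endothelial markers. That rule selects cells low in endothelial marker RNA. Lymphatic-like cells had no class, at least 1000 UMIs, at least 3 lymphatic markers and more UMIs of lymphatic than of fibroblast markers. Gene positions came from GENCODE on GRCm38; 9 of 10 IDs had the same version as the files, and Lrg1 another one. The ratio interval and the 2-fold call were tested on simulated pooled Poisson counts without cell-to-cell spread. The other steps were not tested that way.

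The members and lists were chosen with earlier results of these data known. Within the pathway list, up to 2 genes per role were named at each end of the log2 ratio among those with at least 30 UMIs in the higher library, and other genes named there were chosen after their values were seen. Alternatives, 16 in all, changed the cells used, the scaling, the added CPM and the filter on low values. Python 3.11.15, numpy 2.4.6, scipy 1.17.1 and pandas 2.3.3 were used.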

Additional observations from a re-analysis of the deposited data

Results flagged for a closer look

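Smad6 went opposite ways in 2 classes: the ratio of Injured over Intact CPM was 3.39 in EC_CAP-PV- (22 Injured and 3 Intact UMIs, interval 1.02 to 17.7) and 0.506 in EC_VEN-PV+ (34 Injured and 19 Intact UMIs, interval 0.281 to 0.940). After thinning, a Smad6 UMI was in 4.23% of Injured and 1.69% of Intact EC_CAP-PV- cells and in 1.13% of Injured and 3.61% of Intact EC_VEN-PV+ cells, against 1.70% of Injured and 4.43% of Intact fibroblast-like cells. All but the Injured EC_CAP-PV- share were below those fibroblast-like shares, so neither ratio is read as a difference. With 1 library per condition the difference between the classes was not tested.

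Some of the 10 genes also differed in barcodes to which the authors gave no class (516 Injured and 738 Intact cells). Fibroblast-like cells made up 251 of the Injured and 351 of the Intact ones, and lymphatic-like cells 20 Injured and 103 Intact ones. The barcodes without a class lie outside the endothelial comparisons and served above for comparison and as one alternative. There Bmp2 stood at 34.0 CPM in Injured and 8.84 CPM in Intact barcodes (ratio 3.85, 2.75 to 5.50), Lrg1 at 251 Injured and 79.4 Intact CPM (ratio 3.16, 2.82 to 3.55) and Eng at 249 Injured and 99.7 Intact CPM (ratio 2.50, 2.25 to 2.77). Id1 (ratio 0.427) and Id2 (ratio 0.368) were lower there, and Acvrl1 (1.06), Tgfbi (0.964), Smad7 (0.846), Id3 (0.721) and Smad6 (0.601) lay within 2-fold. Of the 1696 Injured Eng UMIs, fibroblast-like cells held 173 and lymphatic-like cells 100. Of the 1710 Injured Lrg1 UMIs they held 266 and 72. Most Injured UMIs of both genes thus lay in other barcodes without a class. The mix of cells differed between the libraries, and its part in these ratios was not tested.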

How the results depend on the processing

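Of the counts of called genes in pooled endothelium, recomputed under 16 alternatives, 61 values stayed within 1.5 times the one reported and 3 did not. The counts of gene and class pairs were recomputed under 3 alternatives only (all annotated cells, cells of at least 3000 UMIs, and thinning), and all 6 values stayed within 1.5 times. With all barcodes 2 other pathway genes were called higher (4 in the report). With a mean of at least 50 CPM, 1 of the 10 genes was called higher (2 in the report) and 4 other pathway genes lower (9 in the report), since fewer genes are tested there. No log2 ratio that was called changed sign. Over all settings Id1 ranged between -2.13 and -1.51, Id2 between -1.47 and -1.01 and Id3 between -1.75 and -1.16, each at least 2-fold lower in 17 of 17 settings. Bmp2 ranged between 1.57 and 2.29. Tgfbi was called in 16 of 17, with 0.57 over all barcodes and up to 4.63 otherwise. Acvrl1 was called in 9 of 17 (-1.25 to -0.45), Smad7 in 3 (-1.03 to -0.63) and Lrg1, as higher, in 3 (0.69 to 1.47). Smad6 ran between -0.62 and 0.27 and Eng between 0.16 and 0.73, with no call. Leaving out cells with a myeloid or fibroblast marker UMI was chosen after seeing the data. No paired analysis was possible because each condition is 1 library. Depth limits Smad6, Intact Bmp2 and Intact Tgfbi most, which rest on 66, 33 and 37 UMIs.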

Other observations

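Lymphatic-like cells without a class (20 Injured and 103 Intact) held 312 CPM of Tgfbi in Injured and 232 CPM in Intact nerve. Their Lrg1 stood at 303 Injured and 447 Intact CPM, their Id1 at 16.9 Injured and 90.9 Intact CPM, and Bmp2 had 0 UMIs in both libraries. The Id1 values rest on 4 Injured UMIs, found in 5% of the 20 cells, and 47 Intact UMIs, so they are not read as a difference.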
